A study of Mus musculus with 4 samples.

Results

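The genes described here encode nuclear-encoded subunits of respiratory complexes III and IV and ATP synthase, cytochrome c, and factors assembling complexes III and IV. They were chosen by name: every gene whose symbol begins with Uqcr, Atp5, Cox4, Cox5, Cox6, Cox7 or Cox8 in the platform annotation, together with Cyc1, Cycs, Cox10, Cox11, Cox15, Cox17, Surf1, Sco1, Sco2 and Bcs1l. The rule found 52 genes of 18193 on the arrays, on 102 probe sets of 45037. By role they were 9 subunits of complex III, 1 cytochrome c, 17 subunits of complex IV, 17 genes of ATP synthase and 8 assembly factors. The complex IV subunit gene Cox7b was not among the genes found, so the set is not complete.

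Complex III passes electrons from ubiquinol to cytochrome c, complex IV (cytochrome c oxidase) passes them from cytochrome c to oxygen, and ATP synthase uses the proton gradient that the chain builds to make ATP. The catalytic core of complex IV is encoded in mitochondrial DNA, and the subunits around it by nuclear genes, of which some come as a form found in most tissues and a form made mainly in heart and skeletal muscle. MnSOD, encoded by Sod2, removes superoxide, a by-product of this chain, from the mitochondrial matrix.

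The study measured mouse heart and muscle RNA on 4 oligonucleotide arrays, 1 for each tissue of d/d mice and of f/f mice. In d/d mice both copies of the MnSOD gene, flanked by loxP sites, were deleted by a Cre transgene under the MCK (muscle creatine kinase) promoter. The f/f control mice were homozygous for the floxed gene, which the d/d mice carried too before Cre acted, and the labels state no Cre transgene for them. The labels state no strain background, age, sex, choice of muscle or pooling of animals. MCK-Cre acts in muscle cells, so the other cells of either tissue would keep the gene. With 1 array in each group there was no replicate check on any difference between a d/d and an f/f tissue, and each describes a pair of arrays.

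Each value below is the scaled signal (intensity units) of the probe set that represents a gene, its brightest, and differences are on the log2 scale after signals under a floor of 7.51 were set to it. Between 58.0% and 61.1% of probe sets lay above the floor on an array. The 12 markers of fast skeletal muscle were all above the floor on both muscle arrays, with a summed signal of 86321 to 91660, against 78 to 198 on the heart arrays. The 10 cardiac markers summed to 43741 to 44136 in heart, and to 2776 in d/d against 4936 in f/f muscle. The cardiac markers Myl7 and Ryr2 were at the floor in both muscles, and the other 8 were above it. Of those 8, 7 read lower in d/d muscle, with differences from -3.39 (Tnni3, 8.3 against 86.8) to 0.38 (Myl4). The 8 slow fibre markers, some of which are also heart genes, summed to 2466 in d/d against 4793 in f/f muscle. So the tissues matched their labels, and the muscle arrays differed from each other in slow fibre and cardiac markers. All 4 probe sets of Sod2 read lower in d/d heart, by 0.21 to 1.22 on the log2 scale. In d/d muscle 3 of 4 did, and the brightest read 1732 against 1667 in f/f. Their place relative to the deleted part is not stated in the labels, so they are an incomplete check of the deletion.

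The promoters of the isoform genes are shown first, for the size of their differences on the probe sets that represent genes. Cox6a1 and Cox8a had the largest tissue differences among the members with signals over 100 on all arrays. Cox6a1 and Cox7a1 had the largest genotype differences in heart among the same members. RefSeq promoter windows (GRCm38.p6, 250 bases before to 50 after the annotated start) were matched by gene ID for 40 of the 52 genes. Cox6a2 was among those not matched. Capitals mark matches, on either strand, to 4 motifs: the core of the site for GABP and other ETS factors (CCGGAAG), an NRF-1 site (GCGCA, any 1 base, then GCGC), an E-box of the kind that muscle regulators bind (CAGCTG) and a TATA box (TATAAA). GABP and NRF-1 are transcription factors known for activating respiratory chain genes.
Cox6a1, chr5:115348909-115349208, minus strand: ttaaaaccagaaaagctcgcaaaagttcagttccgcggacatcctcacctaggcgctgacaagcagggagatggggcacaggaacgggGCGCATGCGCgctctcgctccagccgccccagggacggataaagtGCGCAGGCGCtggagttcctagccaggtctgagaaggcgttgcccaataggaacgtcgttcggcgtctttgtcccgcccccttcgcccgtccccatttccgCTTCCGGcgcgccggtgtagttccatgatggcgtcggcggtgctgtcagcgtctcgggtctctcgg
Cox7a2, chr9:79759804-79760103, minus strand: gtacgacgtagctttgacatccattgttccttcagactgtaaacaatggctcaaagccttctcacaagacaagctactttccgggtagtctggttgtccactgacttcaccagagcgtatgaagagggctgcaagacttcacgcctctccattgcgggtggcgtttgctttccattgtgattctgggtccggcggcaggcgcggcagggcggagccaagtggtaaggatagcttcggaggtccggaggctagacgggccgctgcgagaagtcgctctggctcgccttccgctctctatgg
Cox8a, chr19:7217567-7217866, minus strand: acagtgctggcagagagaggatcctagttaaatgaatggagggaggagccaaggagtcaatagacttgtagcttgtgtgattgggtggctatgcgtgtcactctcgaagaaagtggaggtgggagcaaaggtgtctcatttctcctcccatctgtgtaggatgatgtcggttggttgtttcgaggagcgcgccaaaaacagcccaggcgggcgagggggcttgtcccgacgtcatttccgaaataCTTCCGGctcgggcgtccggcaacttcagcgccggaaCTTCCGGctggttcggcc
Cox7a1, chr7:30183921-30184220, plus strand: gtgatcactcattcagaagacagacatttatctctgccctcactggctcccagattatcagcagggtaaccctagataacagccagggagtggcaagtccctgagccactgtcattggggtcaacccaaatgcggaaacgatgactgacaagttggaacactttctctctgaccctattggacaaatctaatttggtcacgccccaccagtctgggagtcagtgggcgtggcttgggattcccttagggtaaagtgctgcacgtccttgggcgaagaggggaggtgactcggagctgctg
Cox8b, chr7:140900397-140900696, minus strand: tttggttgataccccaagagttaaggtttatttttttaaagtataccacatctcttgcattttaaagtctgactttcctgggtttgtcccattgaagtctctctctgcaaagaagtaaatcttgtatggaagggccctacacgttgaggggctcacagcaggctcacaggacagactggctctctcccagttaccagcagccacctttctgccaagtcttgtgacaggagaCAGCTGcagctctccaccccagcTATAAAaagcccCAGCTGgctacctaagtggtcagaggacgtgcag

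Among these windows, Cox6a1 held 1 GABP core and 2 NRF-1 sites and Cox8a held 2 GABP cores. The heart and muscle form Cox8b held 2 E-boxes and 1 match to the letters of the TATA box. That match begins at base 5 counted from the annotated start, so it lies downstream of the start. The second E-box of Cox8b begins at base 17 and the second GABP core of Cox8a at base 33, also downstream. Cox7a1 and Cox7a2 held none of the 4 motifs, which says only that these letters are not in these windows. The heart and muscle forms with a window had fewer CpG dinucleotides than the other forms, 7 in Cox7a1 and 2 in Cox8b. Cox6a1 had 32, Cox7a2 20 and Cox8a 19. The median was 19.0 over the 43 windows of members and 7.0 over all 32851 windows. Cox7a1 thus lay at the median of all windows, and only Cox8b was under it. The GABP core lay in 37.2% of the members' windows and 8.86% of all windows, and the NRF-1 site in 18.6% and 4.6%. The E-box lay in 6.98% and 16.3%, and the TATA box in 11.6% and 13.6%. The letters of the GABP core and the NRF-1 site contain CpG, and those of the E-box and TATA box do not. The set of all windows was not matched to the members for CpG, so these shares do not separate the motifs from CpG content. These matches describe the sequence and are not evidence that a factor bound there.

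The first comparison asked how the deletion of MnSOD went with the transcripts of these complexes in heart. Of 51 members measured in heart, 44 read lower in d/d than in f/f, with a median difference of -0.13. Over all 13836 genes measured in heart the median was -0.05 and 54.6% read lower. The differences were small: 0 members were at least 2-fold higher, where 3.94% of all genes were, and 1 was at least 2-fold lower, where 4.22% were. At 1.5-fold, 1 member was higher and 2 were lower, against 11.2% and 13.3% of all genes. Shares over all genes, here and below, are not matched for signal. Of the 52 members, 39 were in the top 5% of genes by mean log2 signal. Among member probe sets in heart, those with a mean signal over 100 differed by -0.51 to 0.62 and dimmer ones by -1.55 to 0.41. The direction of the median was the same under the 8 other scalings, floors and probe set choices tried, at -0.11 to -0.19. Of the 7 other mitochondrial genes fixed as a yardstick, among them the citrate synthase gene Cs and the succinate dehydrogenase genes Sdha and Sdhb, 6 also read lower in d/d heart, with a median of -0.29. In bulk tissue, fewer muscle cells and less RNA per cell cannot be told apart.

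**Figure D1:**
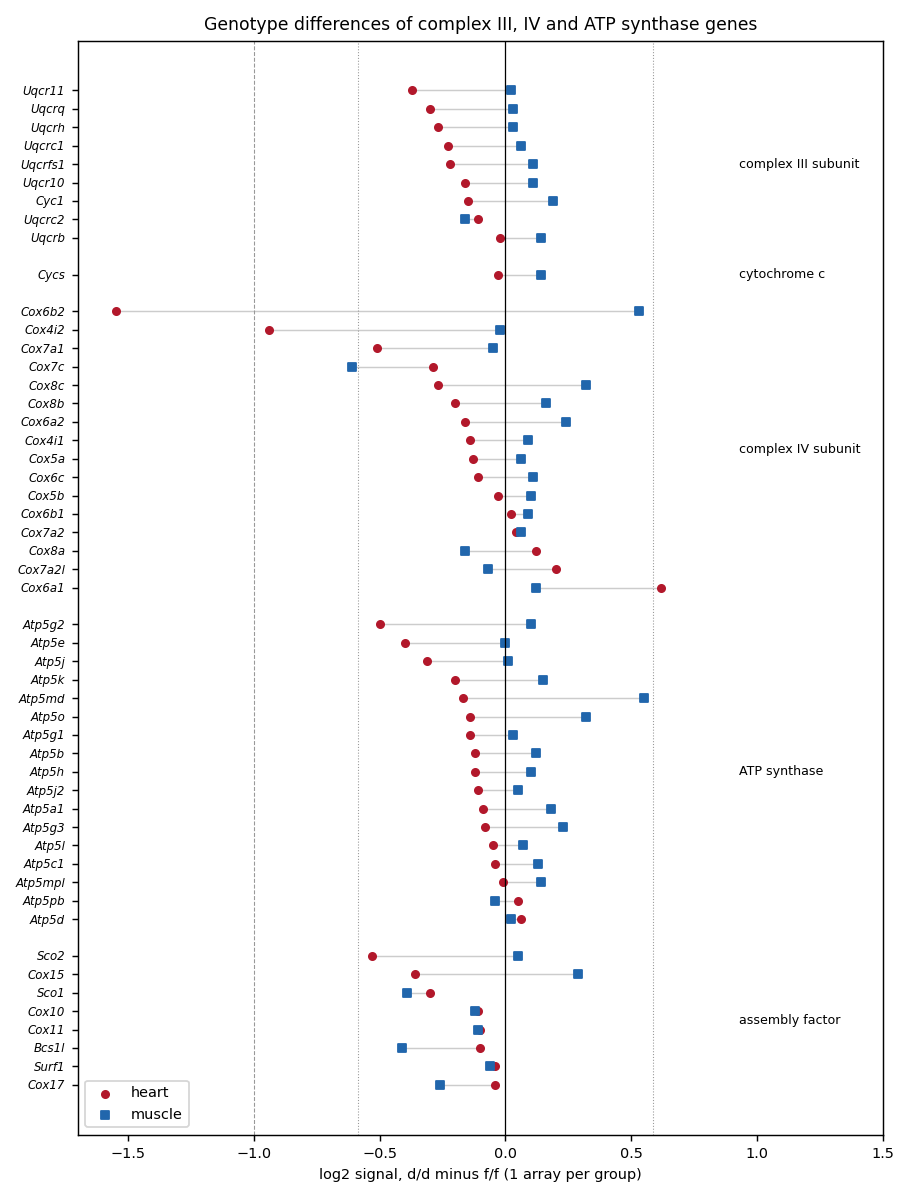
Log2 signal in d/d minus f/f for the 51 measured members, grouped by role and ordered by the heart difference; circles are heart, squares muscle, 1 array per group, with dotted lines at 1.5-fold either way and a dashed line at 2-fold lower. Most circles lie left of 0 (44 of 51) and most squares right of it (37 of 51), while Cox6a1 has the rightmost circle at 0.62 and Cox6b2 the leftmost at -1.55.

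All 9 complex III subunits read lower in d/d heart, by 0.02 to 0.37 on the log2 scale (median -0.22). Uqcr11, a small accessory subunit, had the lowest ratio, at 2626 in d/d against 3402 in f/f heart, a difference of -0.37, with 3117 in d/d against 3069 in f/f muscle. The heart arrays were apart here and the muscle arrays close. Uqcrq, which lies next to cytochrome b, read 2152 and 2646 in d/d and f/f heart, a difference of -0.30, and 2364 and 2309 in muscle. Uqcrh, the hinge protein near cytochrome c1, read 3296 and 3978 in heart and 3675 and 3591 in muscle, and its 2 probe sets differed by -0.27 and -0.29 in heart. Among the subunits with redox centres, the Rieske iron-sulfur protein Uqcrfs1 read 2770 and 3216 in d/d and f/f heart, a difference of -0.22, and 3594 and 3325 in muscle. Cytochrome c1, Cyc1, read 3243 and 3601 in heart and 3725 and 3264 in muscle, so its ratio ran in opposite directions in the tissues, at -0.15 and 0.19. Of the core proteins, Uqcrc1 differed by -0.23 in heart and 0.06 in muscle. Uqcrc2, at 3443 and 3727 in heart and 3208 and 3582 in muscle, read lower in d/d in both tissues, by -0.11 and -0.16. Uqcrb, which takes part in binding ubiquinone, had the smallest heart difference of the 9, at 7867 in d/d against 7970 in f/f heart, and read 9406 and 8551 in muscle, and it was the brightest probe set of all on both heart arrays. Uqcr10, another small accessory subunit, read 2292 and 2559 in heart (-0.16) and 2734 and 2533 in muscle (0.11), but its dimmer probe sets differed by -0.29 and -0.35 in heart and by -0.36 and -0.52 in muscle. Cycs, the somatic cytochrome c that carries electrons from complex III to complex IV, read 5132 and 5256 in heart and 6171 and 5606 in muscle, differences of -0.03 and 0.14.

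Complex IV had the widest spread. Of its 16 measured subunits 11 read lower in d/d heart and 5 higher, from -1.55 to 0.62, with a median of -0.13. The members past 1.5-fold in heart were all in this group, Cox6a1 on the high side and Cox4i2 and Cox6b2 on the low side. Cox4i1, the main form of the largest nuclear-encoded subunit, read 5261 in d/d against 5783 in f/f heart and 5879 and 5507 in muscle. Cox5b, a zinc-binding subunit, read 5734 and 5852 in heart and 7099 and 6625 in muscle. Cox6b1, which faces the cytochrome c side, read 5905 and 5808 in heart and 6844 and 6448 in muscle. Cox6c read 4257 and 4604 in heart and 5522 and 5120 in muscle. With Cox5a, these genes differed by -0.14 to 0.02 in heart and by 0.06 to 0.11 in muscle.

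Cox6a1, the form of subunit 6a found in most tissues, read 2647 in d/d heart, 1727 in f/f heart, 994 in d/d muscle and 915 in f/f muscle. It was thus 1.53-fold higher in d/d heart, a log2 difference of 0.62, and 1.09-fold higher in d/d muscle. Its other probe set read 1044 and 776 in d/d and f/f heart, a difference of 0.43, and 250 and 261 in muscle. Both probe sets thus placed d/d heart highest of the 4 arrays. Cox6a2, the heart and muscle form, went the other way in heart, at 4725 in d/d against 5278 in f/f (-0.16), and read 6267 and 5291 in muscle (0.24). Its other probe set differed by -0.32 in heart and 0.03 in muscle. Across the 4 pairings of probe sets, the heart difference of Cox6a1 exceeded that of Cox6a2 by 0.59 to 0.94, with 0.78 for the representative pair. In muscle the same quantity was -0.12 for that pair and -0.31 to 0.09 over the 4 pairings, so its sign there depended on the probe set.

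Cox7a1, the heart and muscle form of subunit 7a, read 2771 in d/d heart against 3948 in f/f heart, 1.42-fold lower, and 3061 in d/d against 3160 in f/f muscle, 1.03-fold lower. The f/f heart array was high for Cox7a1 and the other 3 were close together. Cox7a2, the form found in most tissues, differed by 0.04 in heart on the brighter of its probe sets, at 5350 and 5211, and by -0.13 on the other, so its direction is not settled, and it read 5949 and 5722 in muscle. Cox7a2l, a related protein that takes part in joining complexes III and IV into supercomplexes, read 1233 in d/d against 1070 in f/f heart and 909 and 952 in muscle. Its 3 probe sets differed by 0.20 to 0.21 there and by -0.07 to -0.33 in muscle. For subunit 8, the heart and muscle form Cox8b read 4138 in d/d against 4750 in f/f heart (-0.20) and 5423 and 4849 in muscle (0.16). Cox8a, the form found in most tissues, read 821 and 757 in heart (0.12) and 201 and 225 in muscle (-0.16), and its other bright probe set differed by 0.01 and 0.24. So all 3 heart and muscle forms read lower in d/d heart, as did 44 of 51 members and 54.6% of all genes. Cox6a2 and Cox8b lay closer to the members' median of -0.13 than Cox7a1, at -0.51. Of the 3 other forms Cox6a1 alone exceeded 1.5-fold. The difference of the general form exceeded that of the muscle form by 0.55 for subunit 7a and 0.31 for subunit 8 in heart, and by 0.10 and -0.32 in muscle. For subunit 8 the muscle value was 0.08 with the other bright probe set of Cox8a, so its sign is not settled. These within-array contrasts keep their value when an array is rescaled. Over the 8 alternatives they ran from 0.76 to 0.84, 0.46 to 0.62 and 0.21 to 0.31 in heart for subunits 6a, 7a and 8. The floors and the rescalings by 1 factor per array could not move them at these signals, so these ranges are a weak check. Over the pairings of bright probe sets the heart contrast ran from 0.38 to 0.55 for subunit 7a and from 0.21 to 0.31 for subunit 8. Whether heart and muscle differ could not be tested with 1 array a group.

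**Figure D2:**
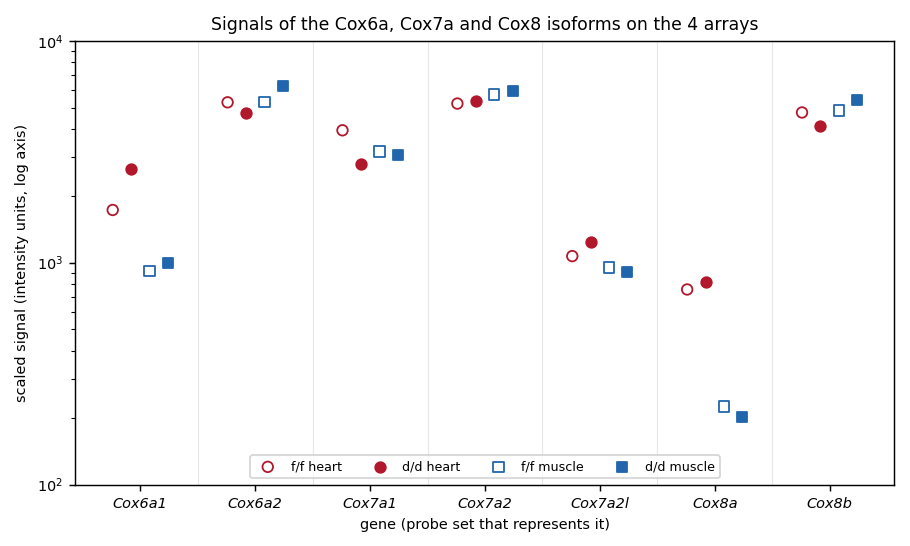
Scaled signal on each of the 4 arrays (log axis, 1 point per array) for the paired isoforms of subunits 6a, 7a and 8 and for Cox7a2l; open symbols are f/f, filled symbols d/d. Cox6a1 reads 2647 in d/d against 1727 in f/f heart, Cox7a1 reads 2771 against 3948, and Cox8a lies at 757 to 821 in heart and 201 to 225 in muscle.

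Markers of other cells differed between the heart arrays as well. All 6 fibroblast markers read higher in d/d heart, with a summed signal of 6944 against 4150, and 7 of 8 macrophage markers, with 2222 against 1644. Of the 5 endothelial markers 3 read higher in d/d heart, with sums of 1414 and 1099. All 6 fibroblast and 8 macrophage markers were above the floor on all 4 arrays. In muscle the fibroblast and macrophage lists ran the other way, with 3464 in d/d against 5189 in f/f for fibroblast markers and 555 against 908 for macrophage markers, while 3 of 5 endothelial markers again read higher in d/d, with sums of 598 and 607. Their part in the Cox6a1 difference, a gene that these cells can also express, was not tested.

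The subunit forms known from other tissues had low signals. Cox4i2, a form of subunit 4 known from lung and from oxygen sensing, read 16.2 in d/d against 30.9 in f/f heart, 1.91-fold lower, and 16.4 and 16.6 in muscle. Cox6b2, a testis form, read 11.7 in d/d against 34.3 in f/f heart, 2.94-fold lower and the single member past 2-fold, and 10.9 in d/d muscle with f/f muscle at the floor, at least 1.45-fold higher. With a floor at the 60th percentile its heart difference was -0.85 in place of -1.55, and it no longer passed 2-fold. Cox8c, another testis form, read 30.7 and 36.9 in d/d and f/f heart and 30.3 and 24.2 in muscle, and Cox7b2 was at the floor on all 4. The 2 probe sets named for Cox7c, a subunit present in all tissues, read at most 17.6 and so gave no usable level. On the brighter of them Cox7c read 11.3 and 13.9 in heart and was 1.52-fold lower in d/d muscle, at 11.6 against 17.6. It was the 1 member past 1.5-fold in muscle, where 10.8% of all genes were at least that much lower and 9.06% higher. Each of these genes has a floor or near-floor signal behind its ratio.

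Of the 17 genes of ATP synthase 15 read lower in d/d heart, from -0.50 to 0.06 with a median of -0.12, and 15 read higher in d/d muscle, with a median of 0.10. The 3 genes of subunit c, whose mature products are the same and form the rotor ring, differed unequally in heart. Atp5g2 read 1676 in d/d against 2372 in f/f heart, 1.42-fold lower, and 2553 and 2379 in muscle. Atp5g1 read 4547 and 5017 in heart (-0.14) and 4971 and 4861 in muscle (0.03). Atp5g3 read 4878 and 5146 in heart (-0.08) and 5869 and 5003 in muscle (0.23). So d/d heart was low for Atp5g2 against all 3 other arrays, while Atp5g1 and Atp5g3 stayed within 1.17-fold in either tissue.

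Among the other parts of the enzyme, Atp5e, the epsilon subunit of the catalytic F1 head, read 2200 in d/d against 2903 in f/f heart (-0.40) and 3194 and 3201 in muscle (0.00). Atp5j, coupling factor 6 of the peripheral stalk, read 2973 and 3685 in heart (-0.31) and 3579 and 3546 in muscle (0.01). For both genes the d/d heart array was low and the other 3 lay close together. The alpha and beta subunits of the head, Atp5a1 and Atp5b, differed by -0.09 and -0.12 in heart and by 0.18 and 0.12 in muscle, and the gamma subunit Atp5c1 by -0.04 and 0.13. Only the delta subunit Atp5d and the stalk subunit Atp5pb read higher in d/d heart. Atp5d read 3505 and 3371 in heart (0.06) and 4086 and 4033 in muscle, and its other probe set differed by -0.11 in heart. Atp5pb read 3852 and 3722 in heart (0.05) and 4013 and 4112 in muscle, and its other probe set differed by -0.24 in heart, so neither direction is settled. Atp5mpl, a small membrane subunit, read 1809 and 1824 in heart and 2162 and 1967 in muscle. With it, Atp5l, Atp5j2, Atp5h and Atp5k differed by -0.20 to -0.01 in heart and by 0.05 to 0.15 in muscle.

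Among the members over 1000 on all 4 arrays, 2 ATP synthase genes had the highest ratios in muscle. Atp5md, a small membrane subunit also called DAPIT that is needed for dimers of the enzyme, read 3630 in d/d against 2479 in f/f muscle, 1.46-fold higher, and 3784 and 4266 in heart. The f/f muscle array was the low one. Atp5o, the stalk protein OSCP, read 4795 and 3845 in muscle (0.32) and 4679 and 5154 in heart (-0.14), but its dimmer probe set went the other way in muscle, at 1249 and 1437 (-0.20).

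Of the 8 assembly factors all read lower in d/d heart, by 0.04 to 0.53 on the log2 scale (median -0.10), and 6 read lower in d/d muscle (median -0.11). Sco2, which delivers copper to complex IV, read 64.9 in d/d against 93.9 in f/f heart (-0.53) and 66.4 and 64.0 in muscle. Sco1, its partner, read 32.3 and 39.9 in heart (-0.30) and 15.7 and 20.6 in muscle (-0.39). Cox15, which makes the haem a of complex IV, read 125 and 161 in heart (-0.36), and its 4 probe sets differed by -0.36 to 0.01. In muscle Cox15 read 179 and 146 (0.29) on the same probe set and its others differed by -0.04 to 0.66. Cox10, which acts before Cox15 in the same path, differed by -0.11 in heart and -0.12 in muscle. Another of its probe sets differed by -0.27 in heart and 0.20 in muscle, at 132 in d/d against 115 in f/f muscle. Its direction in muscle is therefore not settled. Bcs1l, which inserts the Rieske protein into complex III, read 167 and 180 in heart (-0.10) and 141 and 187 in muscle (-0.41). Cox17, the copper chaperone upstream of Sco1 and Sco2, read 1875 and 1933 in heart (-0.04) and 1504 and 1795 in muscle (-0.26). Surf1, which acts early in complex IV assembly, read 236 and 242 in heart and 218 and 227 in muscle. Cox11 differed by -0.10 in heart and -0.11 in muscle.

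In muscle 37 of 51 measured members read higher in d/d, with a median of 0.07, against a median of 0.00 and 49.6% over all 14256 genes measured. None was 2-fold higher or lower, where 2.64% and 3.25% of all genes were. This direction depended on the scaling: the median was -0.02 after quantile normalization, with 22 of 51 above 0, and -0.03 without scaling. Slow fibre and cardiac markers differed between the muscle arrays in the sums given above. Of the slow fibre markers 7 of 8 read lower in d/d, and of the measured cardiac markers 7 of 8. Their part was not tested. The assembly factors, with signals of 15.7 to 1795 in muscle, did not share the direction of the members. Of the 37 members over 1000 on all 4 arrays, 29 read lower in d/d heart and higher in d/d muscle, 78.4%, against 27.4% of all 12711 genes measured in both tissues. That count rests on the muscle direction, which the scaling sets. The tissues' genotype differences share no array. Their difference has no residual degrees of freedom among 4 arrays and was not tested.

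**Figure D3:**
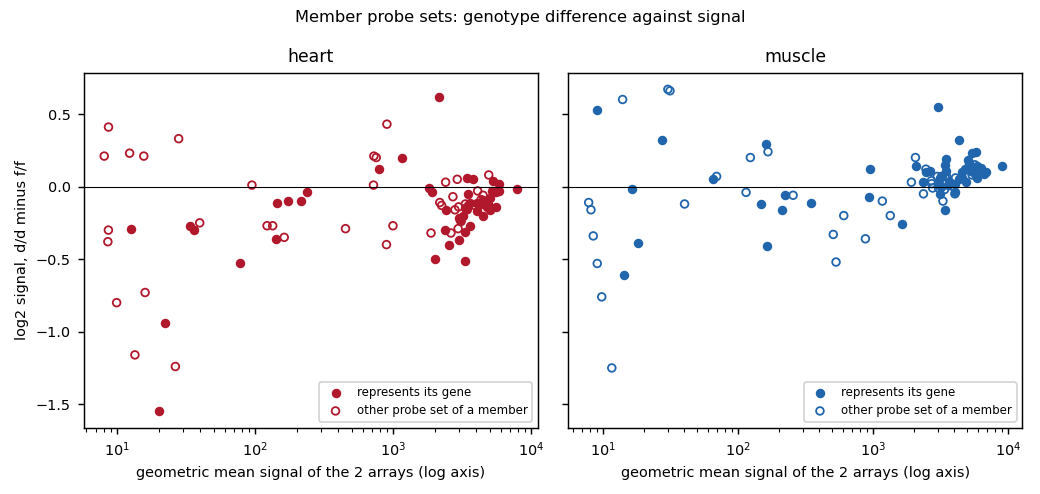
Log2 signal in d/d minus f/f for each member probe set above the floor, against the geometric mean signal of the 2 arrays (log axis), heart left and muscle right; filled symbols represent a gene. In heart 61 of 75 probe sets with a mean signal over 100 lie below 0 and in muscle 50 of 75 lie above it, while the dimmer ones scatter from -1.55 to 0.41 and from -1.25 to 0.67.

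Agreement between probe sets was measured over genes that had several. Over the 23 members with several probe sets of mean signal over 100, the SD between probe sets of a gene was 0.0969 in heart and 0.156 in muscle. It measures disagreement between probes on the same arrays, not between animals. Probe sets ran in both directions for 6 of these members in heart and 11 in muscle.

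A mean genotype effect across both tissues was tested by limma, with tissue in the model and Benjamini-Hochberg adjustment over the 13497 genes that 2 or more arrays measured above the floor. Among the 51 members fitted 0 were called at an adjusted p under 0.05, and 0 had an unadjusted p under 0.05, where 570 of all genes did. Of all genes 0% were called. The fit has 1 residual degree of freedom and takes unequal differences in heart and muscle as error. For Cox6a1 the averaged effect was 0.37 with an SE of 0.28, and for Cox7a1 it was -0.28 with an SE of 0.28.

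The second comparison set heart against muscle. For most members the direction depended on the scaling of arrays from different tissues. The median over members was 0.05 in f/f and -0.19 in d/d with the scaling used, 0.19 and 0.07 after quantile normalization, and 0.48 and 0.27 without scaling. No direction is therefore given for the members as a whole. A few genes differed by more than these shifts. Cox8a was 3.37-fold higher in heart than in muscle in f/f and 4.09-fold in d/d. Its effect averaged over the genotypes in the limma fit was 1.89 with an SE of 0.27 (Benjamini-Hochberg adjusted p = 0.0125), the only one of 51 members called, where 7.97% of all genes were called higher in heart and 5.66% lower. Cox6a1 was 1.89-fold higher in f/f heart and 2.66-fold in d/d heart, with an averaged effect of 1.16 (SE 0.28, limma adjusted p = 0.0503, and 0.00154 to 0.257 over the 10 alternatives). With the dimmer of its probe sets the signals of 1044 and 776 in heart stood against 250 and 261 in muscle. The call for Cox8a was lost with a floor at the 20th percentile (adjusted p = 0.141) and without the filter on low values (adjusted p = 0.161), and over all 10 alternatives its adjusted p ran from 3.61e-05 to 0.161.

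The heart and muscle forms had smaller tissue differences in f/f with the scaling used. Cox6a2 read 5278 in f/f heart and 5291 in f/f muscle, Cox8b 4750 and 4849, and Cox7a1 3948 and 3160. In f/f these genes differed by -0.03 to 0.32 on the log2 scale, against 0.92 for Cox6a1 and 1.75 for Cox8a, while Cox7a2 differed by -0.13. In d/d all 3 muscle forms read lower in heart than in muscle, Cox6a2 by 0.41, Cox8b by 0.39 and Cox7a1 by 0.14 on the log2 scale, and Cox6a1 and Cox8a again read higher in heart. These sizes move with the scaling, as the medians over members do, and so does the direction of the muscle forms in d/d. Without scaling the d/d difference of Cox6a1 was 1.88 in place of 1.41. A shift of that size turns the sign of all 3 muscle forms. Markers of other cells differed between the tissues in f/f too, with summed signals of 1644 in heart and 908 in muscle for macrophages and 1099 and 607 for endothelium, but 4150 and 5189 for fibroblasts, and their part was not tested.

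Of the assembly factors, Sco1 was 1.93-fold higher in f/f heart than in f/f muscle and 2.05-fold in d/d, from signals of 15.7 to 39.9, with an averaged effect of 0.99 (SE 0.26, limma adjusted p = 0.0616, and 0.0221 to 0.211 over the alternatives). Cox11, which carries copper to the core of complex IV, was lower in heart, at 222 in f/f heart and 362 in f/f muscle, and at 207 and 335 in d/d, an averaged effect of -0.70 (SE 0.26, limma adjusted p = 0.132, and 0.0237 to 0.474 over the alternatives). Without scaling the f/f difference of Cox11 was -0.28, and with the median over its probe sets -0.35. In f/f, 2 members were at least 2-fold higher in heart, Cox8a and Cox6b2, where 12.1% of all genes were, and 0 were 2-fold lower, where 8.3% were. In d/d they were Cox8a, Cox6a1 and Sco1, where 15.1% of all genes were higher, and again 0 were lower, where 10.5% were. These counts use the probe set that represents each gene. The dimmer probe sets of Uqcr10 read lower in heart, with differences of -1.80 and -0.99 in f/f and -1.62 and -0.92 in d/d. Its brightest differed by 0.01 and -0.25, so the tissue difference of Uqcr10 depended on the probe set. At 1.5-fold, 7 members were higher in heart and 1, Cox11, lower in f/f, where 24.5% and 17.9% of all genes were. In d/d, 3 were higher and 2, Cox11 and Atp5g2, lower, where 26.1% and 21.9% were. Cox6b2, Cox4i2 and Atp5md were higher in f/f heart than f/f muscle by 2.19 (a lower bound), 0.90 and 0.78, and differed by 0.10, -0.02 and 0.06 in d/d.

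**Figure D4:**
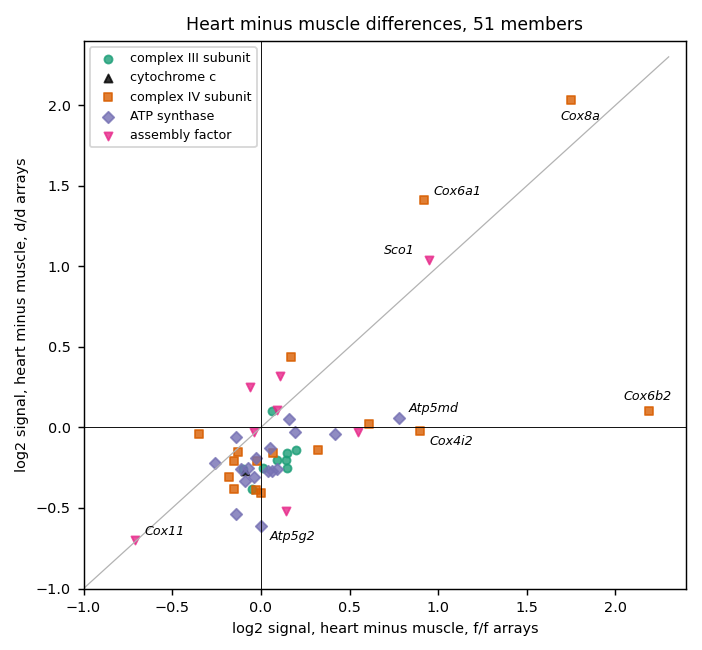
Log2 signal in heart minus muscle on the f/f arrays (horizontal) and on the d/d arrays (vertical) for the 51 measured members, by role, with the line of equality. Cox8a, Cox6a1 and Sco1 lie high on both axes and Cox11 low on both, while Cox6b2, Cox4i2 and Atp5md are high on the f/f axis and near 0 on the d/d axis.

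Other genes that assemble, regulate or supply these complexes were counted from a separate list of 42, of which 39 were on the arrays and 38 measured in each tissue. In heart 27 of 38 read lower in d/d, with a median of -0.14, where 54.6% of all genes did, with a median of -0.05. Of the 38, 1 was at least 1.5-fold higher and 4 at least 1.5-fold lower. The shares over all genes at 1.5-fold were 11.2% and 13.3%. The counts past 1.5-fold thus do not set the list apart, and those genes are given as single values. Cox19, a protein of the intermembrane space needed for complex IV, read 545 in d/d against 296 in f/f heart, 1.84-fold higher, and 210 and 297 in muscle. Cox16, which helps to assemble the core of complex IV, read 166 and 266 in heart, 1.60-fold lower, and 476 and 381 in muscle. Higd1a, a hypoxia-inducible protein that binds complex IV, read 1199 and 1823 in heart, 1.52-fold lower, and 1122 and 1087 in muscle. The coactivators Ppargc1a and Ppargc1b, which drive mitochondrial gene expression, were 1.80-fold and 1.73-fold lower in d/d heart. In muscle Ppargc1a was 1.36-fold higher and Ppargc1b 1.75-fold lower, the 1 gene of this list past 1.5-fold there, where 19 of 38 read lower and 19 higher. Of all genes 10.8% were at least 1.5-fold lower in d/d muscle and 9.06% higher. Gabpa, which encodes the DNA-binding part of GABP, read 147 and 216 in heart and 132 and 141 in muscle, and Nrf1 read 21.2 and 30.1 in heart and 49.6 and 38.9 in muscle.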

How the data were processed

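The data were 4 arrays, 1 for each combination of genotype (d/d, f/f) and tissue (heart, muscle), grouped from the sample titles and tissue labels. Values were deposited as intensity on a linear scale, 1 per array for each probe set. How the authors summarised and scaled these intensity values is not stated in the labels. The deposited values carry no detection call. The deposited 2% trimmed means ran from 48.2 to 69.2, so each array was scaled to their mean, leaving out 64 control probe sets. Signals under a floor of 7.51 (the mean 40th percentile) were set to it before log2. Genes were taken from the platform annotation (34945 probe sets with 1 symbol, and 932 with several, which were not used). The brightest probe set represented a gene. A difference counted as called at 2-fold with the higher array above the floor, and a ratio against the floor is a lower bound. The number of arrays limits the precision.

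An additive model of tissue and genotype was fitted with limma 3.58.1 in R 4.3.3 (lmFit, eBayes, adjusted p under 0.05), for genes measured above the floor by 2 or more arrays. On simulated data this fit made more false calls than its nominal share. Its spread is the disagreement of heart and muscle on the genotype difference, and of the genotypes on the tissue difference. Whether tissues share a mouse is not stated in the labels. The alternatives were other scalings, floors at the 20th and 60th percentile, a pseudocount of 16, other probe set choices, a 1.5-fold threshold and, for the fit, no filter or a trended spread. Members and lists were chosen with earlier results of these data known. Genes named with values were all isoform pairs (Cox7b2 without Cox7b), members past 1.5-fold, and the 3 highest and 3 lowest genotype differences of each role group. Also named were members called by the genotype fit, the 5 highest and lowest tissue differences in f/f, and genes of the other pathway list past 1.5-fold. The other genes given with values were added after their values were seen.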

Additional observations from a re-analysis of the deposited data

Results flagged for a closer look

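The genotype difference ran in opposite directions in heart and muscle for several groups, with 1 pair of arrays each, and the difference between the tissues was not tested. The muscle direction over all members held only under some scalings, and its median was -0.02 after quantile normalization and -0.03 without scaling, the same sign as in heart. Over all members the median was -0.13 in heart and 0.07 in muscle. For complex III subunits it was -0.22 and 0.06, for complex IV subunits -0.13 and 0.09, and for ATP synthase -0.12 and 0.10. Of the members past 1.5-fold in a tissue, Cox6b2 had opposite directions, -1.55 in heart and 0.53 in muscle, from signals of at most 34.3. No group had enough arrays for a check for outlying samples.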

How the results depend on the processing

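No paired analysis was possible because the labels give no replicate numbers and each group has 1 array. Of 499 values recomputed under the alternatives, 423 were counted as the same. Medians counted so stayed within an interval over the members, which are not replicates. Single genes and contrasts stayed within a spread set by the SD between probe sets. Counts stayed within a ratio of 1.5, and fitted effects on their side of the threshold. Some settings could not move some values, such as floors for bright genes, so the 423 is not a measure of stability. A small difference could change sign and still be counted so. Cox7a2 in heart did, from 0.04 to -0.05 with the median over its probe sets. The contrasts between isoforms of subunits 6a, 7a and 8 were added to these after the data were seen. The median over members turned over in muscle, to -0.03 without scaling and -0.02 after quantile normalization, and was 0.03 when each gene took the median of its probe sets. In heart it reached -0.19 without scaling. The tissue medians turned over in f/f to -0.08 with scaling on the median of probe sets above the floor on all arrays, and in d/d to 0.27 without scaling and 0.07 after quantile normalization, with 0.48, 0.19 and -0.34 at the other settings that moved them (f/f without scaling, f/f after quantile normalization, d/d with the median scaling). The cause was not tested. At 1.5-fold the counts of members became 1 higher and 2 lower in heart, 1 lower in muscle, 7 higher and 1 lower in f/f tissue, and 2 lower in d/d tissue. The count of 1 lower in heart was 0 with the floor at the 60th percentile or the pseudocount of 16, and 1 member was 2-fold higher in muscle under a 20th percentile floor. The 2 members higher in f/f heart than muscle became 7 without scaling and 1 under a 60th percentile floor. The limma fit of the genotype effect called 1 gene with a trended spread, Retnla (-2.29, adjusted p = 0.0442), which is no member and was named after its value was seen. The limma fit of the tissue effect called 1840 genes. It called 3341 without scaling, 3112 with a trended spread, and 0 with the floor at the 20th percentile or no filter, where 0 members were called. It called 3 members without scaling, with the floor at the 60th percentile, with the median over probe sets and with the trended spread, and 2 with the pseudocount. Signal near the floor limits Cox4i2, Cox6b2, Cox7c, Cox8c and Sco1.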
